A study of Mus musculus with 4 samples.

Results

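The cathepsins and legumain are lysosomal proteases that cut proteins into peptides for presentation on major histocompatibility complex (MHC) class II molecules. Described here are 10 of them, Ctsa, Ctsb, Ctsc, Ctsd, Ctse, Ctsh, Ctsl, Ctss, Ctsz and Lgmn, which were taken by symbol, for their known role, from the 23366 genes of a read count table whose earlier results were known. The table comes from RNA sequencing of medullary thymic epithelial cells (mTECs) of male and female mice, made to compare the mTEC transcriptome between the sexes. All mice were wild-type C57BL/6 animals aged 6 to 8 weeks, no treatment is named for them, and sex is the only labelled difference between the groups. Each library was a pool of cells from 10 mice, with 2 pools of females and 2 pools of males, and the cells were sorted as negative for propidium iodide and CD45, positive for MHC class II and low for Ly51. Since the animals were pooled and the sort took all mTECs together, the values carry no spread between single mice or between mTEC subsets.

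The 2 female pools held 3508921 (pool 1) and 1976272 (pool 2) reads assigned to genes, and the 2 male pools held 7103627 and 3344471. All 10 genes passed the filter on low counts that left 10865 genes to test, and the lowest count of any of them in a pool was 19, for Ctse in female pool 2. Levels of 1 gene across pools are given as normalized CPM, which are counts scaled to a common library size and corrected for library composition with edgeR's TMM factors. Levels of different genes are compared as reads per kilobase of exon (RPKM), the same values divided by exon length.

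The labels and the sort were checked first. Xist, made from the inactive X chromosome of females, had 349 and 111 counts in female pools 1 and 2 and 7 and 18 counts in male pools 1 and 2, and the Y-linked gene Ddx3y had 445 and 89 counts in the males and 0 in each of the females. Of 6 listed mTEC genes, 5 passed the filter, and Ccl21a had 0 counts in every pool. Aire had 19.3, 31.7, 19.7 and 28.9 normalized CPM in female pool 1, female pool 2, male pool 1 and male pool 2. This order is used for 4 values throughout. Epcam, an epithelial adhesion gene, had 37.0, 42.6, 44.0 and 51.6 normalized CPM. Transcripts of blood cells were nevertheless abundant in these CD45-negative sorts, with Ptprc, which encodes CD45, at 280, 180, 304 and 219 normalized CPM, the B cell gene Cd79a at 2434, 1542, 1861 and 1456, and the macrophage gene Lyz2 at 1161, 2397, 841 and 3327. The pools also stood apart by number, since macrophage transcripts were higher and B cell transcripts lower in pool 2 of each sex. Every level below is therefore a level of the sorted pool, and in such bulk samples fewer cells of a type and less RNA per cell cannot be told apart.

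Proteins taken into the endosomes of an antigen-presenting cell are unfolded, reduced and cut by these proteases. The same enzymes remove the invariant chain, encoded by Cd74, from MHC class II molecules in steps, and the last steps are carried out mainly by cathepsin L in cortical thymic epithelium and by cathepsin S in B cells, dendritic cells and macrophages. In the thymus the peptides made in this way decide which self antigens developing CD4 T cells encounter. Lysosomal protease genes share a promoter element, the CLEAR element, that is bound by the transcription factor TFEB and its relatives.

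Promoter windows of RefSeq (build GRCm38.p6, 250 bases before to 50 bases after a transcription start) were found for 7 of the 10 genes, with none matched for Ctsb, Ctse and Ctsh. In each window the letters CACGTG (an E-box), TCACGTGA (the core of the CLEAR element, which contains the E-box), AGAACA (a half-site of the androgen receptor) and TTCNNNGAA (a STAT site) were looked for on both strands. TCACGTGA was in a window of Ctsa and in that of Ctsd, and in 0.974% of all 32851 windows. The 7 genes had 9 windows, since Ctsa and Lgmn have 2 each. CACGTG was in 4 of the 9, for Ctsa, Ctsd, Ctsl and Lgmn, and in 7.15% of all windows. AGAACA was in windows of Ctsa, Ctsc and Ctss and in 19.0% of all windows, and TTCNNNGAA in that of Ctsc and in 8.30% of all windows. Such matches are letters in a window and not measured binding.

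Printed below are the stretches from 160 bases before to 20 bases after the start for the genes with the CLEAR core and for Ctss, which has a pair of androgen receptor half-sites and no E-box. Ctsd lies at chr7:142387808-142387987 on the minus strand, Ctsa at chr2:164833613-164833792 on the plus strand (the second of its 2 windows) and Ctss at chr3:95526626-95526805 on the plus strand. Capitals mark TCACGTGA in Ctsd and Ctsa and, in Ctss, TGTTCT, which is AGAACA read on the other strand.
Ctsd: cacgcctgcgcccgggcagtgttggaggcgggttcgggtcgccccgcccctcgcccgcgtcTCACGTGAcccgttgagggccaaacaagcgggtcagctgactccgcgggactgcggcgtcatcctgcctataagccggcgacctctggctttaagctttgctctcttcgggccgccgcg
Ctsa: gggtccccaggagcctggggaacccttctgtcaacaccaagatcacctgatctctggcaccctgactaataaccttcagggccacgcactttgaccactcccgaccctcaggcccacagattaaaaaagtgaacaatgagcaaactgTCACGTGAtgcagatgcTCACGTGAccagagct
Ctss: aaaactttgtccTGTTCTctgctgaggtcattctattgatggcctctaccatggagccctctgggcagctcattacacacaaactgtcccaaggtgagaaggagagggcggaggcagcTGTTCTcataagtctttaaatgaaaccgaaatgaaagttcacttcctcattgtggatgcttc
The CLEAR core began 99 bases before the start in Ctsd (position -99). In Ctsa it began at -13 and again at 5, and in Ctss the half-sites began at -148 and -42.

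The 10 genes spanned a 297-fold range of mRNA per length, with all exons as the length. The range was narrower with the longest transcript as length, where Ctsz had a mean of 1098 RPKM and Ctse of 5.52. The values that follow use all exons. Ctsz, a cysteine carboxypeptidase, had the highest mean of the 4 pools at 1098 RPKM and Ctss, the cysteine endoprotease of blood antigen-presenting cells, followed at 858 RPKM, above 99.3% and 99.1% of the 10239 tested genes with a length. Ctsh, Ctsb and Ctsd had means of 198, 177 and 170.2 RPKM. Ctsc, Lgmn, Ctsa and Ctsl had means of 65.6, 53.2, 50.1 and 48.0 RPKM. Ctse, the aspartic protease cathepsin E, had a mean of 3.70 RPKM, above 37.3% of the tested genes. With all exons as the length, the genes thus fell into 4 groups of levels whose ranges over the pools did not overlap, from 593 to 1397 RPKM for Ctsz and Ctss, from 109 to 249 for Ctsh, Ctsb and Ctsd, from 43.5 to 74.7 for Ctsc, Lgmn, Ctsa and Ctsl, and from 2.97 to 4.34 for Ctse.

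**Figure D1:**
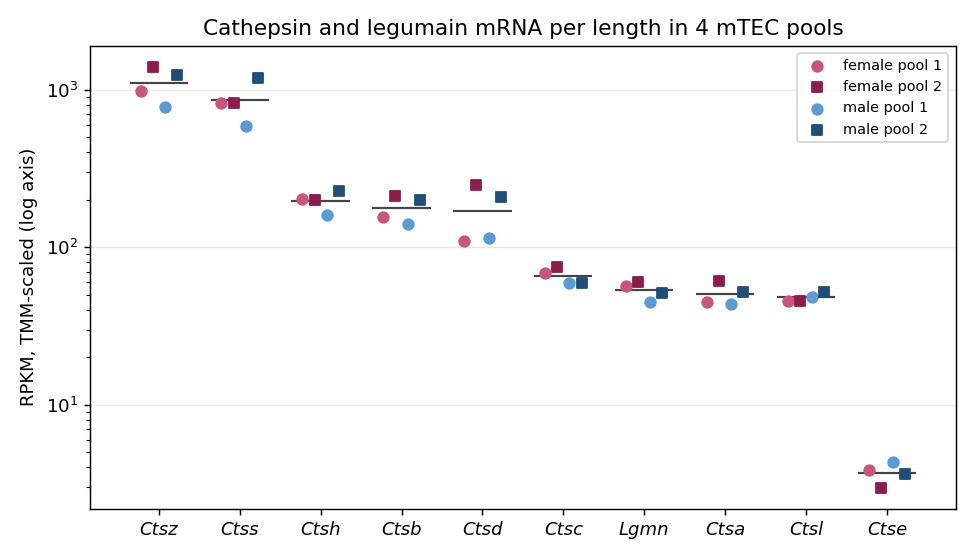
RPKM of each protease (log axis) in the 4 pools, ordered by the mean, which is drawn as a line. Ctsz and Ctss lie above all other genes in every pool and Ctse lies below 4.34 RPKM in all of them.

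Within these groups the order was less certain. Of the 9 pairs of neighbours in the mean order, 5 had the same order in all pools. Among these, Ctss and Ctsh, Ctsd and Ctsc, and Ctsl and Ctse lie in different groups, which fixes their order. Within the groups, only the pair Ctsz and Ctss and the pair Ctsc and Lgmn kept theirs. Ctsz was above Ctss in 4 of 4 pools, but by no more than 1.05-fold in male pool 2 and by up to 1.68-fold in female pool 2, and the ranges of the pair overlapped. Ctsc was above Lgmn in 4 of 4 pools, by 1.16-fold to 1.33-fold. Ctsh was above Ctsb in 3 of 4 pools, Ctsb above Ctsd in 2, Lgmn above Ctsa in 2 and Ctsa above Ctsl in 1, so these neighbours did not differ beyond their spread over pools. With the longest transcript in place of all exons as the length, Ctsb and Ctsd changed places, as did Lgmn and Ctsa. Ctsc then had a mean of 119 RPKM, and its highest value, 135 in female pool 2, lay above the lowest of Ctsd, 129 in female pool 1, so that the groups of Ctsd and of Ctsc overlapped.

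Ctsz and Ctss made up most of the protease mRNA in every pool. Ctsz held 39.3%, 44.6%, 39.1% and 37.9% of the summed RPKM of the 10 genes, and Ctss held 33.1%, 26.5%, 29.9% and 36.05%. With Ctsh and Ctsb they made up 84.2% to 87.0% of the sum in every pool. The share of Ctsd was larger in pool 2 of each sex, at 4.38% and 7.96% for females and 5.74% and 6.36% for males. Ctsl, whose product acts late in invariant chain cleavage in cortical epithelium, held 1.46% to 2.45%.

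**Figure D2:**
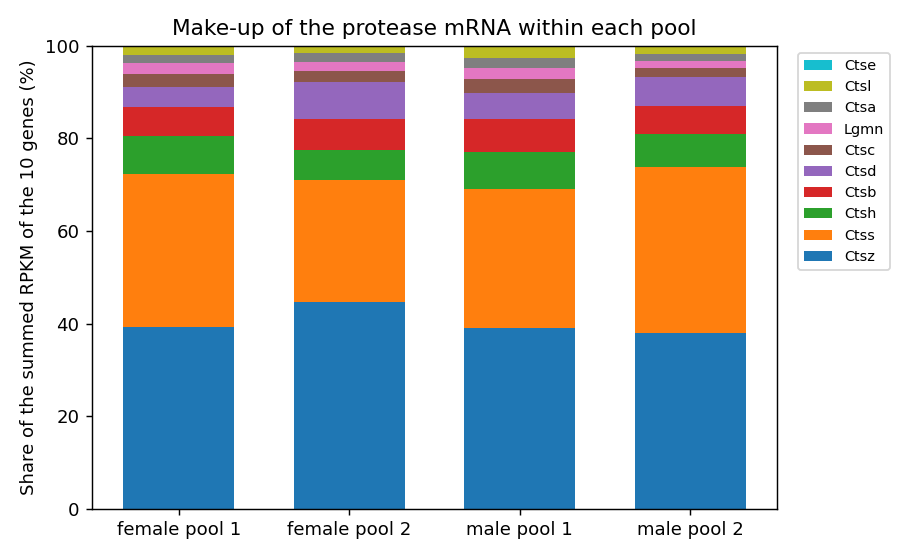
Share of each gene in the summed RPKM of the 10 proteases, in percent, with 1 bar for each pool. Ctsz and Ctss fill most of every bar, and Ctse, at 0.219% or less, is not visible.

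The study asked how mTEC transcripts differ between the sexes, and none of the 10 protease genes was called different. When edgeR's quasi-likelihood test was run over all 10865 genes, 0 of the 10 passed the threshold of 0.05 after Benjamini-Hochberg adjustment (adjusted p = 0.999994 for each), against a background of 0% called. At an unadjusted p under 0.05 there were 0 of the 10 and 48 of all tested genes, and DESeq2 called 0 of the 10 and 3 of all. The log2 of the male-to-female ratio (log2FC) ran from -0.29 for Lgmn to 0.22 for Ctse, with standard errors (SE) of 0.31 to 0.56. The median was -0.12, with 3 of 10 above 0, beside 0.027 and 53.2% above 0 for all tested genes. It turned to 0.092 without female pool 2 and to 0.089 without male pool 1, with 7 of 10 above 0 in each. The 95% intervals of the 10 genes together ran from -1.48 to 1.31 on the log2 scale, and sizes within each interval cannot be told apart from 0. The sex-linked genes of the label check were not called by this test either, with an adjusted p of 0.186 for Ddx3y, the lowest of all genes in this edgeR quasi-likelihood fit, and of 0.999994 for Xist at a log2FC of -4.57. The absence of a call therefore does not show that the proteases were alike in the sexes. The p-values measure the spread between these pools. The sign of the log2FC changed without female pool 2 for Ctsa, without female pool 2 or male pool 1 for Ctsb, Ctsd and Ctsz, without male pool 1 for Ctsh, and without male pool 2 or with library size alone for Ctss. It held in all 12 alternative settings for Ctsc, Ctse, Ctsl and Lgmn.

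**Figure D3:**
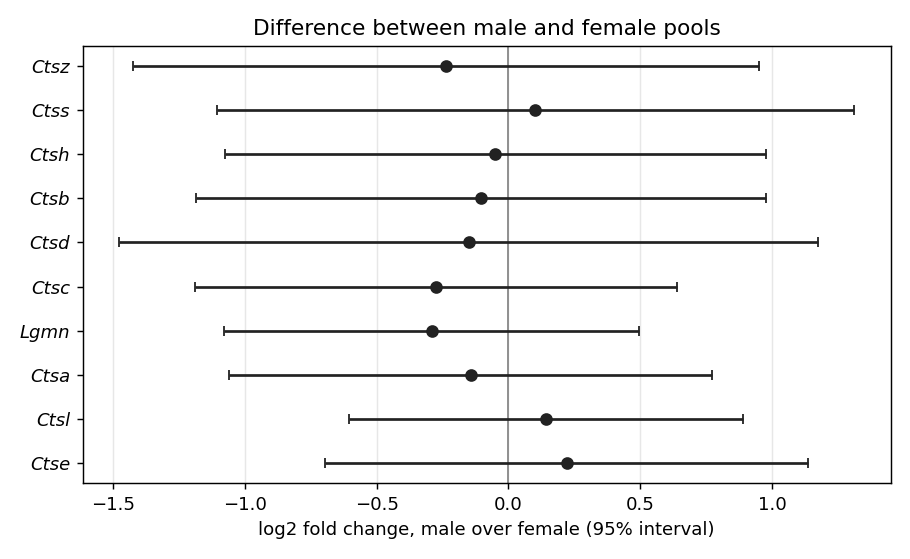
Log2FC (log2 of the male-to-female ratio) for each protease (points) with its 95% interval (bars), 2 pools of each sex. The intervals were computed from the log2FC and F statistic of edgeR's quasi-likelihood test. All 10 intervals include 0.

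The cysteine endoproteases cathepsin L and cathepsin S act late in invariant chain cleavage. Ctsl lies at chr13:64464522-64471614 of NCBIM37, the assembly also called mm9 and used for all genes below, on the minus strand, with 8 exons in its longest transcript, as exons are counted throughout. It had 89.4, 90.6, 95.8 and 103 normalized CPM, or 90.0 ± 0.797 over the females and 99.5 ± 5.21 over the males (mean ± SD, n = 2), a log2FC of 0.14 (SE 0.31). Both male pools lay above both female pools, which was the case for 1 of the 10 genes and for 9.47% of all tested genes. Ctss lies at chr3:95330708-95360325 on the plus strand, with 8 exons. It had 1117, 1128, 805 and 1608 normalized CPM, or 1123 ± 7.63 over the females and 1206 ± 568 over the males, a log2FC of 0.10 (SE 0.51). The male pools lay on either side of the nearly equal female pools, and the log2FC was -0.47 with male pool 2 left out and 0.51 with male pool 1 left out. Per length, Ctss exceeded Ctsl 18.2-fold and 18.1-fold in females and 12.2-fold and 22.7-fold in males.

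Cathepsins B, Z, H and C are cysteine proteases that also, or only, trim peptides from their ends. Ctsb lies at chr14:63741302-63764758 on the plus strand, with 10 exons, and encodes an endoprotease with carboxydipeptidase activity. It had 733, 1001, 667 and 948 normalized CPM, with the highest value in females and the lowest in males, and a log2FC of -0.10 (SE 0.45). Ctsz lies at chr2:174252994-174264540 on the minus strand, with 6 exons. It had 1410, 2014, 1116 and 1792 normalized CPM, and the sexes overlapped, with a log2FC of -0.24 (SE 0.50). Ctsh, an aminopeptidase gene at chr9:89948990-89970927 on the plus strand, with 12 exons, had 700.5, 688, 552 and 791 normalized CPM. The male pools lay below and above both female pools, and the log2FC was -0.05 (SE 0.43).

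Ctsc encodes the dipeptidyl peptidase that activates the serine proteases of granules in blood cells. It lies at chr7:95426595-95459398 on the plus strand, with 4 exons. It had 399.6, 433, 344 and 344 normalized CPM, and both male pools lay below both female pools, with a log2FC of -0.27 (SE 0.38). Lgmn encodes legumain, the asparaginyl endopeptidase that makes early cuts in antigens and in the invariant chain and also processes other cathepsins. It lies at chr12:103632294-103678023 on the minus strand, with 14 exons. It had 131, 141, 103 and 119 normalized CPM, or 136 ± 6.54 over the females and 111 ± 11.0 over the males (mean ± SD, n = 2), again without overlap, and a log2FC of -0.29 (SE 0.33). Both male pools lay below both female pools in 2 of the 10 genes, Ctsc and Lgmn, and in 11.7% of all tested genes. With library size alone in place of TMM this held for Ctsc, Ctsh, Ctsz and Lgmn and for 8.94% of all tested genes, and the sexes overlapped in Ctsl. Per length, Lgmn was above Ctsl in both female pools, by 1.25-fold and 1.32-fold, and at ratios of 0.918 and 0.980 in the male pools. With the longest transcript as length the male ratios were 1.07 and 1.14, so the order of the pair in males depended on the length used.

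The aspartic proteases were Ctsd and Ctse. Ctsd, which encodes the abundant lysosomal protease cathepsin D, lies at chr7:149557053-149573943 on the minus strand, with 9 exons. It had 274, 628, 287 and 526 normalized CPM, or 451 ± 250.1 over the females and 407 ± 169 over the males (mean ± SD, n = 2), with a log2FC of -0.15 (SE 0.56). In each sex pool 2 was high and pool 1 low, and the log2FC was 0.59 without female pool 2 and 0.22 without male pool 1. Ctse, an endosomal relative found in epithelial and some blood cells, lies at chr1:133534883-133572080 on the plus strand, with 10 exons. It had 45, 19, 115 and 30 counts, which gave 12.2, 9.40, 13.7 and 11.6 normalized CPM and a log2FC of 0.22 (SE 0.38). Per length, Ctsd exceeded Ctse 28.2-fold, 84.0-fold, 26.2-fold and 57.3-fold, with all exons as the length. These ratios were smaller with the longest transcript as length. Ctsd then had 129, 295, 135 and 247 RPKM and Ctse had 5.76, 4.43, 6.47 and 5.44.

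Ctsa encodes cathepsin A, a serine carboxypeptidase that also protects the sialidase Neu1 and the β-galactosidase Glb1 in a complex. It lies at chr2:164658373-164666532 on the plus strand, with 16 exons, and had 211, 286, 205 and 245 normalized CPM. The sexes overlapped, with a log2FC of -0.14 (SE 0.38). Its complex partner Neu1 had 48.9, 52.0, 55.9 and 39.7 normalized CPM, and a log2FC of -0.07 (SE 0.32). Exons of Ctsa overlap those of Pltp over 495 bases and of Neurl2 over 324 bases on the opposite strand, and exons of Ctsb overlap those of Fdft1 over 769 bases. Whether reads were counted by strand is not given in the sources used here, so the counts of Ctsa and Ctsb are uncertain to that extent. Ctsz shares 10 exonic bases with Th1l on the opposite strand, and Ctsd shares 163 with 6330512M04Rik on the same strand, and neither of these partners is a row of the table.

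The proteases also differed between the pools of 1 sex. Of the 10 genes, 8 had more normalized CPM in the second than in the first pool of each sex, as did 31.2% of all tested genes, and the exceptions were Ctse and Ctsh. This count takes any difference, however small, and includes Ctsc, whose male pools were at 344.22 and 344.23, and Ctss and Ctsl, at a ratio of 1.01 in females. Only 4 of the 8 were higher beyond counting error in each sex. Lower in pool 2 of both sexes was 1 of the 10, Ctse, and 35.0% of all tested genes. The median log2 ratio of pool 2 to pool 1 over the 10 genes was 0.11 in females and 0.38 in males, beside -0.0097 and -0.062 for all tested genes. What the pool numbers stand for is not given, so these ratios are descriptions with no test.

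Ctsd had the largest ratio in females. It was 2.29-fold higher in female pool 2 than in female pool 1 (95% interval 2.11 to 2.49, exact binomial, for counting error only) and 1.84-fold higher in male pool 2 (1.72 to 1.96). Ctsz followed a like pattern, at 1.43-fold (1.37 to 1.49) in females and 1.61-fold (1.55 to 1.66) in males. Ctsb and Ctsa were also higher in both, with ratios of 1.37 and 1.42 for Ctsb and 1.36 and 1.19 for Ctsa. In these 4 genes the counting interval lay above 1 in each sex. Ctss had a ratio of 1.01 (0.959 to 1.06) in females and of 1.997 (1.92 to 2.08) in males, and Ctsh had 0.983 and 1.43. Whether these ratios differed between the sexes was not tested. Ctsc, Ctsl and Lgmn were nearly level between the pools, with ratios of 1.0 to 1.15, and Ctse had 0.769 (0.425 to 1.34) and 0.841 (0.543 to 1.27).

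**Figure D4:**
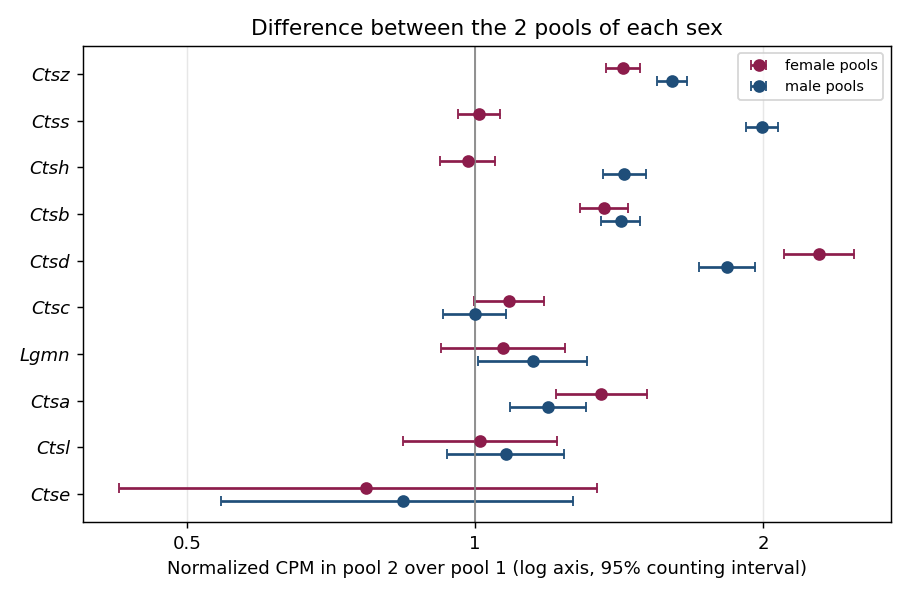
Normalized CPM of pool 2 divided by that of pool 1 (log axis) for each protease, in females and in males, with 95% counting intervals as bars. The intervals of Ctsd, Ctsz, Ctsb and Ctsa lie above 1 in both sexes, and those of Ctss, Ctsh and Lgmn in males alone.

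This count depended on the correction for library composition. With library size alone, 2 of the 10 genes, Ctsd and Ctsz, were higher in pool 2 of both sexes, as were 18.4% of all tested genes, while the median log2 ratio of all tested genes in males moved from -0.062 to -0.66. Ctsd then stood at 2.24 in females and 1.21 in males, and Ctsz at 1.39 and 1.06. Ratios between genes in the same pool do not depend on this scaling. Against the other 9 proteases, Ctsd was higher in pool 2 of both sexes relative to 8 of them, all but Ctss, and Ctse was lower relative to all 9. Ctse had only 19 and 30 counts in female and male pool 2. Its counting intervals, 0.425 to 1.34 in females and 0.543 to 1.27 in males, covered the ratios of Ctsc, Ctsl and Lgmn in both sexes. The order of Ctse against these genes was therefore within counting error. Per length, Ctsd was 1.58-fold Ctsc in female pool 1 and 3.34-fold in female pool 2, and 1.92-fold and 3.52-fold in the male pools (1.04-fold, 2.18-fold, 1.26-fold and 2.31-fold in the 4 pools with the longest transcript as length).

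Other genes of lysosomal proteolysis and class II loading were taken as 7 lists of 60 genes, of which 59 were in the table and 49 were tested. By edgeR's quasi-likelihood test 0 of the 49 were called between the sexes, 0 had an unadjusted p under 0.05, and 16 had a log2FC above 0. The inhibitors of cysteine cathepsins include a very abundant transcript. Cystatin C, encoded by Cst3, is secreted and inhibits cathepsins S, L, B and H, and its gene had 10395, 17421, 8985 and 33912 normalized CPM. Pool 2 was above pool 1 in each sex, and the log2FC was 0.62 (SE 0.77), and -0.62 without male pool 2. Cstb, which encodes the intracellular inhibitor stefin B, had 266, 373, 235 and 924 normalized CPM and a log2FC of 0.86 (SE 0.67). It passed the threshold in 1 of the 12 alternative settings, without male pool 1, with edgeR's adjusted p at 0.0171. In that setting the males are a single pool and 646 genes in all passed. The log2FC of Cstb was at -0.44 without male pool 2. Of the 9 cystatin and stefin genes in the table, 4 were tested, Cst3, Cst6, Cst7 and Cstb, and all 4 were higher in pool 2 of both sexes, beside 31.2% of all tested genes. Per length, Cst3 exceeded Ctss 9.98-fold, 16.6-fold, 11.98-fold and 22.6-fold.

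Of the 7 tested genes among the other lysosomal peptidases, 0 were higher and 5 lower in pool 2 of both sexes, beside 31.2% and 35.0% of all tested genes, and 1 had a log2FC above 0. Napsa, an aspartic protease related to cathepsin D, had 704, 568, 521 and 419 normalized CPM, and Scpep1, a serine carboxypeptidase, had 295, 230, 216 and 172. In both genes the male pools lay below the female pools, as in 11.7% of all tested genes, with log2FC values of -0.44 (SE 0.42) and -0.43 (SE 0.38), and neither passed the test. Prss16, the thymus-specific serine protease of cortical epithelium, had 6, 6, 15 and 4 counts and was below the filter.

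Ifi30 encodes GILT, the thiol reductase that opens disulfide bonds of antigens before they are cut. It had 978, 1168, 698 and 1696 normalized CPM, with a log2FC of 0.16 (SE 0.55), and its extremes were the male pools, as with Ctss. Of the 3 genes in its list, Ifi30, Neu1 and Glb1, 1 was above 0. The lysosomal transcription factors had log2FC values below 0 in 3 of 3 tested genes. Tfe3 had 50.6, 45.0, 37.0 and 35.8 normalized CPM and Tfeb had 41.3, 54.4, 33.8 and 25.0, with log2FC values of -0.39 (SE 0.30) and -0.69 (SE 0.33). The male pools lay below the female pools in both genes, as in 11.7% of all tested genes, and neither passed the adjusted threshold. Mitf, a relative of TFEB, had 4.35, 2.97, 2.15 and 5.78 normalized CPM, with overlapping sexes and a log2FC of -0.02 (SE 0.66).

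Of 19 lysosomal membrane proteins and other hydrolases, 7 had a log2FC above 0 (median -0.09), and 13 were higher and 5 lower in pool 2 of both sexes, beside 31.2% and 35.0% of all tested genes. Psap, the precursor of the saposins, had 1958, 2291, 1959 and 2065 normalized CPM, and Laptm5, a lysosomal membrane protein of blood cells, had 1775, 1331, 1589 and 991, so these 2 most abundant genes of the list differed in how they varied with the pools. Of 5 genes of mannose 6-phosphate sorting, which carries new hydrolases to the lysosome, 2 were above 0. M6pr, the cation-dependent receptor, had 366, 280, 344 and 241 normalized CPM, and Gnptg, a subunit of the enzyme that makes the sorting signal, had 32.9, 34.6, 38.0 and 31.6. Of 8 genes of MHC class II loading, 1 was above 0 (median -0.20), and in 4 of the 8 both male pools lay below both female pools. Over all 49 tested genes of the 7 lists this was so for 11, beside 11.7% of all tested genes, and the reverse for 1, beside 9.47%. Cd74 had 48025, 47550, 34172 and 41879 normalized CPM and H2-Ab1 had 29016, 29187, 22184 and 27459, with log2FC values of -0.33 (SE 0.58) and -0.23 (SE 0.56).

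Transcripts of macrophages and of epithelium moved with the pools in the same way as several proteases. The macrophage and monocyte list, with 8 genes in the table, all detected (Emr1 was also listed under its newer symbol Adgre1), summed to 2106, 4651, 1495 and 6360 normalized CPM, and 6 of 8 genes were higher and 0 lower in pool 2 of both sexes, where 31.2% of all tested genes were higher and 35.0% lower. Its most abundant gene was Lyz2 (mean 1931), and the complement genes C1qa, C1qb and C1qc, which mark tissue macrophages, were 2.52-fold to 2.90-fold higher in female pool 2 than in female pool 1 and 5.42-fold to 5.65-fold higher in male pool 2 than in male pool 1. The epithelium list, with 9 of 9 genes, summed to 376, 650.2, 418 and 618, with Spint2 the most abundant (mean 280) and 7 of its genes higher and 1 lower by the same measure. So Ctsd, Ctsz, Ctsb and Ctsa, Cst3 and both of these lists were all higher in pool 2 of each sex after TMM scaling. This was not particular to them, since the summed mTEC, cortical, plasmacytoid dendritic cell and fibroblast lists given below were also higher. With library size alone, Ctsb and Ctsa were not higher in male pool 2 (ratios to male pool 1 of 0.936 and 0.786), nor was the epithelium list (0.974), while the macrophage and monocyte list was 2.16-fold higher in females and 2.80-fold in males. The part of any of these cell types in the protease values was not tested.

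The B cell list moved the opposite way. Its 8 of 8 genes summed to 4619, 3028, 3812 and 2539 normalized CPM, with Cd79a the most abundant (mean 1823), and 7 of 7 tested genes were lower in pool 2 of both sexes, beside 35.0% of all tested genes. The conventional dendritic cell list (8 of 8 genes) summed to 3025, 2444, 2483 and 2043, with Ccr7 the most abundant (mean 1769). Most of this sum was Ccr7, at 2312, 1699, 1935 and 1131, so the sum mainly follows that gene. The genes of the list were split, with 4 higher in pool 2 of both sexes (Itgax, Xcr1, Clec9a and Batf3) and 2 lower (Ccr7 and Cd209a). The plasmacytoid dendritic cell list (5 of 5 genes, Irf7 the most abundant) summed to 1017, 1226, 920 and 1309, with 2 genes higher and 3 lower in pool 2 of both sexes. These cells are known to express Ctss, and their part in its level was not tested either.

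**Figure D5:**
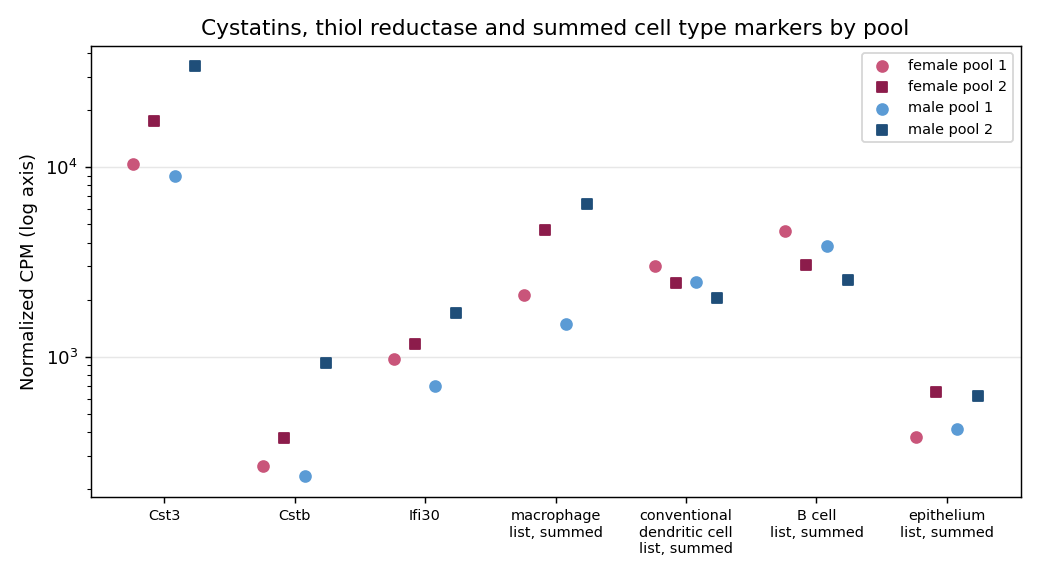
Normalized CPM (log axis) in the 4 pools for the cystatin genes Cst3 and Cstb, for Ifi30, which encodes the thiol reductase GILT, and summed for lists of cell type markers. Squares (pool 2) lie above circles (pool 1) in each sex for Cst3, Cstb, Ifi30, the macrophage list and the epithelium list. Squares lie below circles for the B cell list and for the summed conventional dendritic cell list, most of which is Ccr7. Of the 8 genes of the dendritic cell list, 4 were higher and 2 lower in pool 2 of both sexes.

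The mTEC list had 6 of 6 genes in the table, with Ccl21a at 0 in all pools and Cd40 the most abundant (mean 348), and summed to 446, 487, 374 and 447 normalized CPM. Of its 5 tested genes, 4 were higher and 0 lower in pool 2 of both sexes, beside 31.2% and 35.0% of all tested genes. With library size alone, the ratio of its sum in pool 2 to that in pool 1 was 1.07 in females and 0.788 in males. Most of this sum was Cd40, at 368, 383, 300 and 341 normalized CPM, so the ratio mainly follows that gene. After TMM scaling the ratios in females and males were 1.04 and 1.14 for Cd40, 1.64 and 1.46 for Aire, and 0.736 and 1.29 for Cd80. The cortical list (6 of 6, Ly75 the most abundant) summed to 63.9, 77.7, 60.5 and 99.3. The sums were 12.2, 46.0, 69.4 and 78.5 for fibroblasts (Dcn the most abundant) and 26.9, 27.2, 29.5 and 18.1 for endothelium (Pecam1 the most abundant and Emcn at 0). Thymocyte genes (9 of 9, Lck the most abundant) summed to 394, 333, 1035 and 429, and neutrophil genes (7 of 7, S100a9 the most abundant) to 72.6, 66.3, 225 and 238. Of the 64 tested genes of all 12 lists, 0 were called between the sexes by edgeR's quasi-likelihood test, and 4 had an unadjusted p under 0.05, Cd3d and Cd8b1 of the thymocyte list and S100a8 and S100a9 of the neutrophil list, beside 48 of all 10865. The male pools lay above the female pools in 9 of the 64, among them 4 thymocyte and 2 neutrophil genes, beside 9.47% of all tested genes, and below them in 6, beside 11.7%.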

How the data were processed

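The authors deposited raw counts per gene, made by HTSeq-count from TopHat2 alignments to mm9 after a quality filter with Trimmomatic. Versions, annotation and strand setting are not given in the sources used here. The cDNA was made with the SMARTer Ultra Low kit. A further 5 rows of unassigned reads, 66.9% to 70.2% of a pool's total, stayed out of all values.

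From these counts, males were compared with females with edgeR 4.0.16 in R 4.3.3 (quasi-likelihood test, TMM, filterByExpr with a minimum count of 10, prior count 0.125, Benjamini-Hochberg adjustment at 0.05, two-sided, sex as the only term). TMM factors were 1.05, 1.03, 1.18 and 0.780 in the order of the report. A count of 0 allows up to 3 counts, 0.815, 1.48, 0.358 and 1.16 normalized CPM. This limit and the counting intervals cover counting error only. The common biological coefficient of variation was 0.349. Pools of 1 sex differed beyond sampling noise (chi-square per degree of freedom 9.18 in females, 67.1 in males) and were kept as separate samples.

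RPKM divides normalized CPM by the union of exons in the NCBIM37 annotation, in which 21093 symbols (90.3%) matched 1 gene. Python 3.11.15, pandas 2.3.3 and matplotlib 3.10.9 were also used. The 10 genes, the lists and the motifs were chosen with earlier results of these data known. All 10 are named, and of each other list the most abundant gene and, in some lists, others chosen for their known role. Alternatives were DESeq2 1.42.0, its size factors, upper-quartile scaling, library size only, no filter, over 1 CPM in at least 2 pools, the exact test, pool number as a block, each pool left out, and the longest transcript as length.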

Additional observations from a re-analysis of the deposited data

How the results depend on the processing

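In every alternative, 0 of the 10 proteases passed the threshold between the sexes. Their median log2 fold change ran from -0.35 to 0.092 with a pool left out. The number of all tested genes past the threshold was 5 with library size only, 3 with DESeq2, 8 with edgeR's exact test, 26 without a filter, and 0 to 646 with a pool left out (646 without male pool 1, 70 without male pool 2). With pool number as a replicate block it was 17. Pools of the same number deviated together (r = 0.53 across genes, 2 pairs), but the labels give no pairing. Of 24 named genes with 12 alternatives each, 10 never changed direction, among them Ctsc, Ctse, Ctsl and Lgmn. With library size only, Ctss was at -0.081, Ifi30 at -0.053 and Gnptg at -0.0047. All other reversals came from leaving out a pool, where the lone pool of a sex is assumed to vary like the others, and the cause was not tested. The log2 fold change then ran from -0.35 to 0.11 for Ctsa, -0.37 to 0.16 for Ctsb, -0.64 to 0.59 for Ctsd, -0.32 to 0.18 for Ctsh, -0.47 to 0.51 for Ctss, -0.61 to 0.066 for Ctsz, -0.62 to 1.28 for Cst3, -0.44 to 1.52 for Cstb, -0.61 to 0.65 for Ifi30, -0.36 to 0.16 for Neu1, -0.19 to 0.058 for Psap, -0.66 to 0.040 for Laptm5, -0.44 to 0.097 for M6pr and -0.11 to 0.18 for Gnptg. Of the 10 proteases, 2 were higher in pool 2 of both sexes with library size only. With the longest transcript as length, 6 of the 10 kept their rank. Depth limits Ctse most, with 19 to 115 counts.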

Other observations

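The table also holds 14 other cathepsin genes. Ctso, a widely expressed cysteine cathepsin, had 79.1, 56.9, 73.8 and 39.7 normalized CPM in female pool 1, female pool 2, male pool 1 and male pool 2. Ctsw, known from cytotoxic lymphocytes, had 15.5, 16.8, 45.3 and 9.24, so male pool 1 stood apart, as it did for the summed thymocyte genes. Ctsf and Ctsk, the latter the collagen-degrading protease of osteoclasts, averaged 2.48 and 0.778 normalized CPM and were below the filter, as was Ctsg, a granule protease of neutrophils, with 0 to 6 counts in a pool. The 9 genes of the rodent placental cathepsin cluster (Cts3, Cts6, Cts7, Cts8, Ctsj, Ctsll3, Ctsm, Ctsq and Ctsr) had at most 4 counts in any pool.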
